A study of Homo sapiens with 9 samples.

Results

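The mRNAs of the plasma proteins that the liver secretes were examined in cross-linking data for MDH2, the mitochondrial malate dehydrogenase, from the human hepatocarcinoma line Huh7. The group held 37 listed genes, out of 29165 identifiers with exon windows in the count table. Of the 37, 36 had windows, and CFB, the complement factor B gene, is not analysed here. The members were taken by symbol after matching Ensembl identifiers to GENCODE v44. Enhanced cross-linking and immunoprecipitation (eCLIP) maps the RNA bases that ultraviolet light ties to a protein. The study compared 3 groups of 3 libraries each, all from UV cross-linked Huh7 lysate with no treatment or genotype between them. MDH2 IP was made with an antibody to the endogenous protein, IgG IP with an isotype-matched antibody, and SMI, the size-matched input, without immunoprecipitation. Huh7 was the only line used. The libraries are called independent replicates without separate cultures being named, so the tests measure the spread between these libraries. Because each library pools many cells, fewer cells carrying an mRNA and fewer copies per cell cannot be told apart.

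Plasma proteins are made by hepatocytes on ribosomes bound to the endoplasmic reticulum. Their mRNAs open with a signal peptide sequence, which directs the nascent chain into the secretory pathway, and they are among the most abundant mRNAs of the liver. The list covers carriers such as albumin and transferrin, clotting factors and their inhibitors, complement proteins, protease inhibitors, adhesive glycoproteins, and the hormone precursor angiotensinogen. The question put to the data was whether cross-links on these mRNAs were more frequent after MDH2 IP than in either control.

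Each value counts the cross-linked bases of a 50 nt window, and windows advance by 20 nt, so that 1 site can enter up to 3 windows. Exon windows held 3249743 to 5077928 counts per MDH2 IP library, 3651574 to 4657825 per SMI library and 506394 to 1134240 per IgG IP library. The smaller IgG IP libraries give the less precise comparison: a member's log2 fold change had a median standard error of 0.22 with SMI and 0.29 with IgG IP as control. Exons took 53.6% to 59.9% of the MDH2 IP counts, 43.9% to 49.8% of the SMI counts and 31% to 38.5% of the IgG IP counts. Markers of hepatoma cells were counted for all 8 genes listed, summing to 7766 to 9797 CPM (counts scaled to a common library size) for MDH2 IP, 10115 to 12463 for SMI and 5505 to 9561 for IgG IP. Among these markers ALB, AFP, TTR and SERPINA1 are also members of the group, so the sums are not separate from the genes studied here. The summed endothelial markers reached at most 10.2 CPM and the stellate and fibroblast markers at most 19.7 CPM in any library, with KDR and DCN at 0. The blood markers summed to 66.6 to 209 CPM with HBB at 0, and the bile duct markers to 227 to 350 CPM.

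Together the members held 1.44%, 1.67% and 1.16% of all exon counts in the 3 libraries of MDH2 IP, against 1.2%, 1.4% and 0.996% in those of SMI, and 1.33%, 0.955% and 0.741% in IgG IP. The mean share was 1.42% ± 0.26 (SD, n = 3) for MDH2 IP, 1.2% ± 0.2 for SMI and 1.01% ± 0.3 for IgG IP, and the 3 ranges overlapped. A small number of genes carried these counts. FN1 alone supplied 20.1% of all member counts, the first 6 genes 63.6% and the first 12 genes 83.7%. Counts depend on transcript length, so this order says nothing of the level of one mRNA against another.

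Over the whole mRNA, 0 members passed the test in each of the 3 comparisons, fitted without a replicate block. With a block for the replicate number, 8 were higher and 1 lower over SMI, where 21.1% and 20.7% of all genes were. Over IgG IP 5 were then higher, where 2.78% of genes were. For IgG IP over SMI 1 was then higher and 5 lower, where 12.1% and 9.78% were. Without the block, 32 members could be tested over SMI with exon windows summed per gene. Of these, 0 passed an adjusted p of 0.05 in edgeR's quasi-likelihood test in either direction, against 8.6% of all 13922 genes higher and 10.7% lower. At an unadjusted p of 0.05 there were 3 members, where 34.1% of all genes reached it, and DESeq2's Wald test called 1 higher. Over IgG IP, 31 members were tested and 0 passed, with 5 at an unadjusted p of 0.05 (15.4% of all genes) and 0 by DESeq2, against 0.302% of 12572 genes higher and 1.8% lower. For IgG IP over SMI, which shares its libraries with the other 2 comparisons, 0 of 31 passed, with 3 at an unadjusted p of 0.05 (30% of all genes) and 2 higher by DESeq2, where 9.59% of 12787 genes were higher and 5.98% lower in edgeR. The shares of all genes called by DESeq2 are not given. The median log2 fold change of the members was 0.12 over SMI, beside 0.005 over all genes tested, and 0.43 over IgG IP, beside 0.037. The median over SMI changed sign when MDH2 IP replicate 2 or SMI replicate 3 was left out, at -0.024 in each case. The median over IgG IP was 0.21 without IgG IP replicate 3 and 0.26 without MDH2 IP replicate 2. Over IgG IP, 27 of 31 members lay above 0, beside 6646 of all 12572 genes tested. Their median for IgG IP over SMI was -0.37, beside -0.11 over all genes, and -0.13 without IgG IP replicate 3. Members on SMI's scale ran from GC at -0.53 ± 0.30 (SE, adjusted p = 0.246) to PROC at 0.91 ± 0.31 (SE, adjusted p = 0.0698). On the scale of IgG IP they ran from HPX at -0.23 ± 0.23 (SE, adjusted p = 0.686) to KNG1 at 1.07 ± 0.66 (SE, adjusted p = 0.477).

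**Figure D1:**
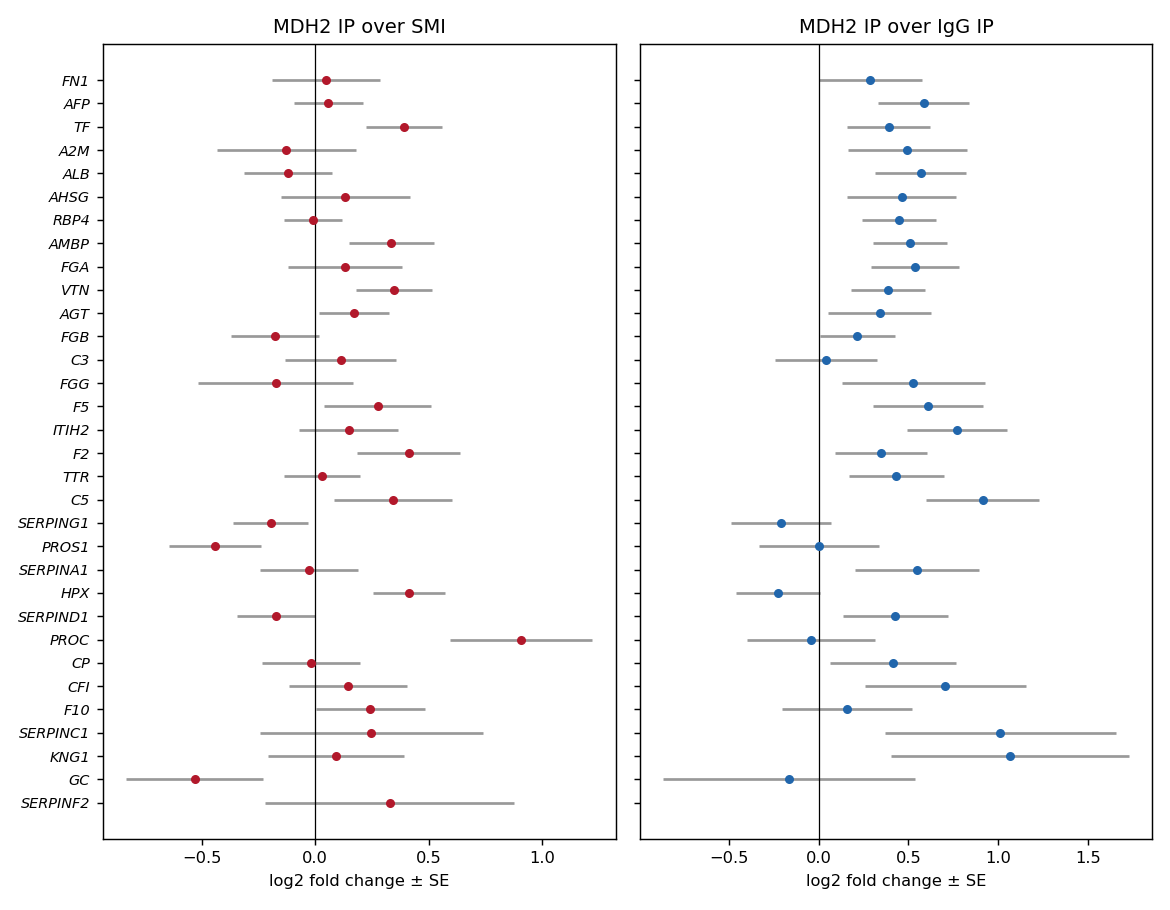
Log2 fold change of exon counts (x axis, points with standard errors) for each of the 32 members tested over SMI, with MDH2 IP over SMI on the left and MDH2 IP over IgG IP on the right, ordered from the most counted gene at the top. Points lie on both sides of 0 on the left, and 27 of 31 lie above 0 on the right, where 6646 of all 12572 genes tested did. None of either set passed the adjusted p of 0.05 in the fit shown, which has no replicate block.

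Among the carriers, TF and HPX lay above SMI in every MDH2 IP library and GC below it. TF, the iron carrier of plasma, had 1406, 1418 and 1081 CPM in MDH2 IP, against 1051, 1021 and 832 in SMI, and 1294, 835 and 773 in IgG IP. All 3 MDH2 IP values of TF lay above all 3 SMI values, while the IgG IP values overlapped both. Its log2 fold change was 0.39 ± 0.17 (SE, adjusted p = 0.132) against SMI and 0.39 ± 0.23 (SE, adjusted p = 0.452) against IgG IP, which did not pass over either control in the fit without a replicate block. HPX, the heme scavenger hemopexin, and PROC, the anticoagulant protein C, shared this order, making 3 of 32 members, where 20% of all genes tested had every MDH2 IP library above every SMI library. In the opposite order stood 1 member, GC, the vitamin D-binding protein, where 18.9% of genes did.

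Albumin, the most abundant protein of plasma, gave 1037, 1142 and 824 CPM in MDH2 IP, against 1027, 1292 and 862 in SMI, and 933, 544 and 492 in IgG IP. MDH2 IP and SMI overlapped for ALB, and IgG IP replicate 1 lay inside the MDH2 IP range. The log2 fold change was -0.12 ± 0.19 (SE, adjusted p = 0.702) against SMI and 0.57 ± 0.25 (SE, adjusted p = 0.311) against IgG IP. AFP, alpha-fetoprotein, the fetal counterpart that hepatoma cells make again, had 1957, 1848 and 1562 CPM in MDH2 IP, against 1707, 1808 and 1513 in SMI, and 1682, 861 and 937 in IgG IP. For AFP, IgG IP replicate 1 stood at the level of MDH2 IP and the other two IgG IP libraries well below it. The log2 fold change of AFP was 0.06 ± 0.15 (SE, adjusted p = 0.825) against SMI and 0.59 ± 0.25 (SE, adjusted p = 0.289) against IgG IP. RBP4, the retinol carrier, had 596, 614 and 579 CPM in MDH2 IP, against 607, 589 and 560.2 in SMI, and 525, 424 and 323 in IgG IP. Its MDH2 IP and SMI libraries covered nearly the same range, and all 3 IgG IP libraries lay below every MDH2 IP library. The log2 fold change of RBP4 was -0.01 ± 0.13 (SE, adjusted p = 0.967) against SMI and 0.45 ± 0.21 (SE, adjusted p = 0.331) against IgG IP. RBP4 was 1 of 5 members with every MDH2 IP library above every IgG IP library, beside AMBP, VTN, FGA and KNG1, in 31 tested, where 13.4% of all genes had that order. The reverse order was found for 0 members and 10.1% of genes.

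Of the adhesive glycoproteins, FN1, fibronectin, which plasma and the extracellular matrix share, was the most counted member, with 2686, 3504 and 1999 CPM in MDH2 IP, against 2541, 3168 and 2005 in SMI, and 3133, 1919 and 1491 in IgG IP. Replicate 2 was the highest library of both MDH2 IP and SMI, and replicate 1 the highest of IgG IP. The groups overlapped, at 0.05 ± 0.24 (SE, adjusted p = 0.91) against SMI and 0.29 ± 0.29 (SE, adjusted p = 0.677) against IgG IP on the log2 scale. VTN, vitronectin, which links complement and clotting to cell adhesion, had 332, 473 and 396 CPM in MDH2 IP, against 281, 344 and 296 in SMI, and 314, 323 and 256 in IgG IP. Of the MDH2 IP libraries of VTN, 1 lay inside the SMI range, and all 3 lay above IgG IP. The log2 fold change was 0.35 ± 0.17 (SE, adjusted p = 0.177) against SMI and 0.39 ± 0.21 (SE, adjusted p = 0.4) against IgG IP.

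The protease inhibitors and their relatives showed the same overlap. A2M, the broad protease trap alpha-2-macroglobulin, had 1026, 1635 and 735 CPM in MDH2 IP, against 1097, 1634 and 877 in SMI, and 1046, 845 and 457 in IgG IP. The second replicate was far above the other two in both MDH2 IP and SMI, and the log2 fold change of A2M was -0.13 ± 0.31 (SE, adjusted p = 0.808) against SMI and 0.49 ± 0.33 (SE, adjusted p = 0.508) against IgG IP. AHSG, fetuin-A, which keeps calcium phosphate in solution, had 809.6, 973 and 532 CPM in MDH2 IP, against 729, 889 and 437 in SMI, and 739.5, 570.4 and 321 in IgG IP. The 3 groups of AHSG overlapped, at 0.13 ± 0.28 (SE, adjusted p = 0.781) against SMI and 0.46 ± 0.30 (SE, adjusted p = 0.499) against IgG IP. AMBP encodes a precursor cut into alpha-1-microglobulin and bikunin, the light chain of the inter-alpha inhibitors, and had 544, 734 and 608 CPM in MDH2 IP, against 475, 587 and 395 in SMI, and 485, 442 and 360.1 in IgG IP. Its lowest MDH2 IP library lay inside the SMI range. The log2 fold change of AMBP was 0.33 ± 0.19 (SE, adjusted p = 0.238) against SMI and 0.51 ± 0.20 (SE, adjusted p = 0.249) against IgG IP.

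The 3 fibrinogen chain genes, whose products form the clot, lay on both sides of 0 over SMI. FGA, the alpha chain, had 465, 763 and 495 CPM in MDH2 IP, against 386, 684 and 463 in SMI, and 401, 453 and 302 in IgG IP. FGB, the beta chain, had 262, 361 and 291 CPM in MDH2 IP, against 254, 379.6 and 373 in SMI, and 295, 229 and 240.1 in IgG IP. FGA lay at 0.13 ± 0.25 (SE, adjusted p = 0.755) and FGB at -0.18 ± 0.19 (SE, adjusted p = 0.565) over SMI, and FGG, the gamma chain, at -0.17 ± 0.34 (SE, adjusted p = 0.76), each with overlapping libraries. Over IgG IP the same genes stood at 0.54 ± 0.25 (SE, adjusted p = 0.325), 0.21 ± 0.21 (SE, adjusted p = 0.666) and 0.53 ± 0.40 (SE, adjusted p = 0.566). AGT, angiotensinogen, from which renin cuts the angiotensin peptides, had 371, 375 and 295 CPM in MDH2 IP, against 326, 309 and 267 in SMI, and 406, 221 and 167 in IgG IP. Its 3 groups overlapped too, at 0.17 ± 0.16 (SE, adjusted p = 0.483) against SMI and 0.34 ± 0.29 (SE, adjusted p = 0.615) against IgG IP.

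**Figure D2:**
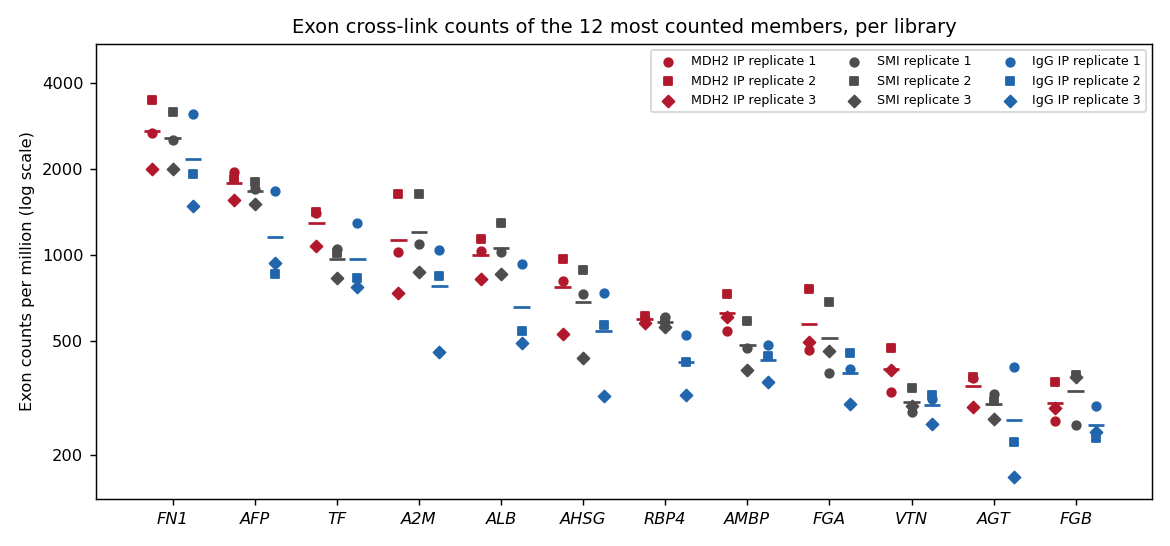
Exon counts (CPM) on a log scale (y axis) in each of the 9 libraries for the 12 most counted members, with short lines at the group means. The MDH2 IP and SMI libraries overlap for every gene shown except TF, and for most genes IgG IP replicate 1 lies above the other two IgG IP libraries.

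The remaining tested members were less counted and none passed in the fit without a replicate block. The other clotting genes over SMI were F2 (prothrombin) at 0.41 ± 0.23 (SE, adjusted p = 0.233), F5 at 0.28 ± 0.24 (SE, adjusted p = 0.448) and F10 at 0.24 ± 0.24 (SE, adjusted p = 0.518). PROC and PROS1, protein C and its cofactor protein S, lay on opposite sides of 0, at 0.91 ± 0.31 (SE, adjusted p = 0.0698) and -0.44 ± 0.20 (SE, adjusted p = 0.156). PROS1 has a near-identical pseudogene, and how reads were split between the pair is uncertain. The complement genes C3, C5 and CFI lay at 0.11 ± 0.24 (SE, adjusted p = 0.786), 0.34 ± 0.26 (SE, adjusted p = 0.387) and 0.14 ± 0.26 (SE, adjusted p = 0.736). C5 had the lowest adjusted p of any member over IgG IP, at a log2 fold change of 0.91 ± 0.32 (SE, adjusted p = 0.177). PROC had 37.1, 75 and 35.2 CPM in MDH2 IP, against 25.8, 30.5 and 20.1 in SMI, and 51.7, 60.1 and 34.9 in IgG IP. For PROC both immunoprecipitations were high and SMI low, and the log2 fold change of IgG IP over SMI was 0.99 ± 0.31 (SE, adjusted p = 0.0508), beside -0.04 ± 0.36 (SE, adjusted p = 0.973) for MDH2 IP over IgG IP. HPX had 0.67 ± 0.24 (SE, adjusted p = 0.0779) for IgG IP over SMI. TTR, the thyroid hormone and retinol-binding protein carrier, and ITIH2, an inter-alpha inhibitor heavy chain, lay at 0.03 ± 0.17 (SE, adjusted p = 0.918) and 0.15 ± 0.22 (SE, adjusted p = 0.681) over SMI. The serpins SERPING1, SERPINA1, SERPIND1, SERPINC1 and SERPINF2, which inactivate proteases of complement, inflammation and clotting, ran from -0.20 for SERPING1 to 0.33 for SERPINF2. CP, the copper carrier ceruloplasmin, and KNG1, the kinin precursor, lay at -0.02 ± 0.22 (SE, adjusted p = 0.961) and 0.09 ± 0.30 (SE, adjusted p = 0.861). SERPINA3, PLG, ITIH3 and ITIH1 had too few counts to test, with at most 18 in any library, and SERPINF2 was tested over SMI but not in the comparisons that use IgG IP.

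Cross-links were then compared along each mRNA, since a shift between exons can leave the sum unchanged. Over SMI, single windows passed the enrichment test in 5 members. Of these 8 windows 7 lay in exon 1, among them 4 overlapping windows of FN1. The share of passing windows in first exons was not counted over all genes. Over SMI the 5′-most exon lay above the fold change of its gene in 65.5% of members and 74.2% of other protein-coding genes. Windows passed at an adjusted p of 0.05 and a log2 difference of 1 or more after correction for overlapping windows, and of 1535 member exon windows tested 8 passed, where 3.21% of all 46789 exon windows did. Over IgG IP 0 of 1162 member exon windows passed in edgeR, with 141 at an unadjusted one-sided p of 0.05 and a lowest adjusted p of 0.0863, where 0.0751% of 27970 exon windows did. For IgG IP over SMI 2 of 1210 passed, where 5.08% of all exon windows did, and both are windows that MDH2 IP also enriched over SMI. The number of member windows that passed was 0 without SMI replicate 1 or SMI replicate 3, 4 without MDH2 IP replicate 1 and 18 without MDH2 IP replicate 3. Over all exon and intron windows the share that passed fell from 4.07% to 1.7%, 2.9%, 0.72% and 1.97% in these fits. Without MDH2 IP replicate 3 the member count thus rose from 8 to 18 while the share over all windows fell.

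The sequences below are shown because they are the places on these mRNAs where MDH2 IP exceeded SMI. They were read from GRCh38 and are printed 5′ to 3′ on the coding strand. For TF and TTR the capitals mark the start codon, and the bases around it are given, not the middle of a window. For the others no base is in capitals, since the windows do not resolve the site further, and the middle 30 bases of a window are given.
FN1 exon 1, 5′ untranslated region: tgctgcacagggggaggagagggaacccca
AMBP exon 1, 5′ untranslated region: ttccccagcctcagttcacagctgccctgt
TF exon 1, start codon: cgcacccggaagATGaggctcgccgtggga
TTR exon 1, start codon: attcttggcaggATGgcttctcatcgtctg
ITIH2 exon 19, coding: gaagcatcccgtcaatgttgactttctggg

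The FN1 run lies at chr2:215436025-215436054 on the minus strand, in the second of 4 adjoining windows that passed. The window lay 213 to 262 nt before the start codon, in exon 1, which GENCODE v44 places at chr2:215435655-215436073. It had MDH2 IP counts of 88, 93 and 67, SMI counts of 30, 36 and 12, and IgG IP counts of 11, 10 and 3. The lowest MDH2 IP count was above the highest SMI count, with a log2 fold change of 1.49 ± 0.32 (SE, adjusted p = 0.0156) against SMI and 0.76 ± 0.41 (SE, adjusted p = 1) against IgG IP. The other 3 windows of the run had log2 fold changes of 1.59, 1.61 and 1.74 over SMI. The outermost of them also passed for IgG IP over SMI, at 1.80 ± 0.52 (SE, adjusted p = 0.0201).

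The AMBP run lies at chr9:114078283-114078312 on the minus strand, inside a window 64 to 113 nt before the start codon. The window had MDH2 IP counts of 60, 68 and 41, SMI counts of 20, 23 and 7, and IgG IP counts of 20, 5 and 1. MDH2 IP exceeded SMI by 1.57 ± 0.36 (SE, adjusted p = 0.0179) and IgG IP exceeded SMI by 1.62 ± 0.50 (SE, adjusted p = 0.0421) on the log2 scale, and MDH2 IP over IgG IP was 0.22 ± 0.45 (SE, adjusted p = 1). Both immunoprecipitations passed over SMI in this window.

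The TF start codon lies at chr3:133746441-133746443 on the plus strand. The count table gives the number of windows of this exon but not its length, and all 20 lengths that fit that number place the start codon inside the window that passed. That window had MDH2 IP counts of 164, 149 and 84, SMI counts of 63, 60 and 33, and IgG IP counts of 33, 11 and 10. It stood at 1.14 ± 0.28 (SE, adjusted p = 0.0335) over SMI, at 1.09 ± 0.35 (SE, adjusted p = 0.0769) for IgG IP over SMI and at 0.32 ± 0.34 (SE, adjusted p = 1) for MDH2 IP over IgG IP. The TTR start codon lies at chr18:31591903-31591905 on the plus strand, and 19 of the 20 fitting lengths place it inside the window that passed. The TTR window had MDH2 IP counts of 43, 55 and 22, SMI counts of 11, 12 and 11, and IgG IP counts of 6, 5 and 1. All 3 MDH2 IP libraries were above SMI, at 1.63 ± 0.36 (SE, adjusted p = 0.0116), with 0.72 ± 0.54 (SE, adjusted p = 1) over IgG IP.

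The ITIH2 run lies at chr10:7744881-7744910 on the plus strand, in the only one of the 8 windows that is not in a first exon. The window had MDH2 IP counts of 28, 27 and 18, SMI counts of 3, 11 and 5, and IgG IP counts of 2, 0 and 0. It stood at 1.76 ± 0.40 (SE, adjusted p = 0.0228) over SMI. This window met the filter of 10 counts in 3 libraries only through MDH2 IP. Over IgG IP, with 2 counts in 1 library and 0 in the other two, the adjusted p was 0.634.

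**Figure D3:**
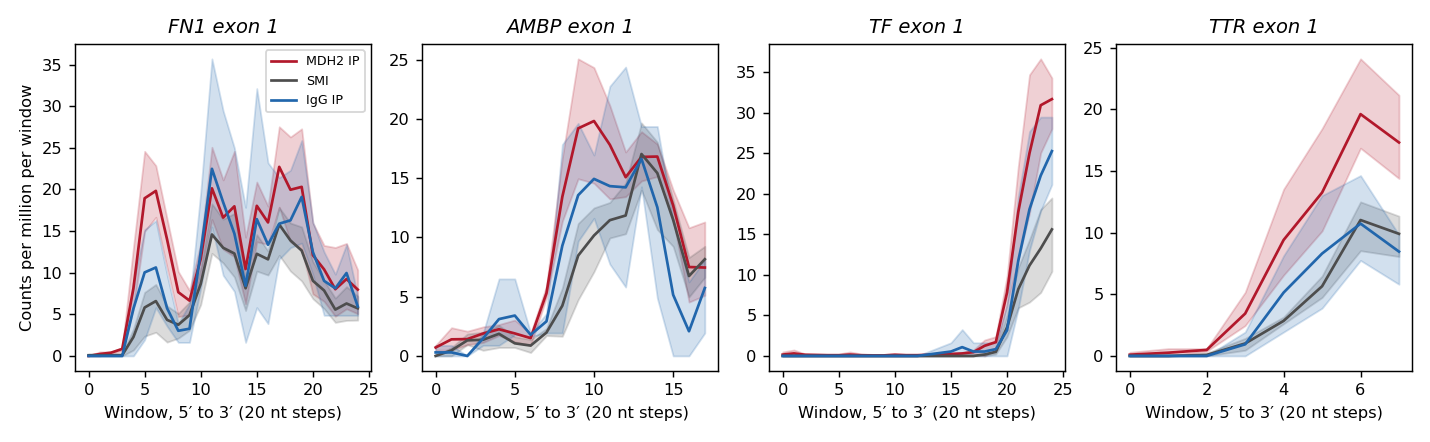
CPM per window (y axis) along exon 1 of FN1, AMBP, TF and TTR, from the first listed window at the 5′ end (x axis, steps of 20 nt), with lines for the mean of 3 libraries and bands from the lowest to the highest library. The MDH2 IP mean lies above that of SMI in 24 of 25 windows of FN1, 16 of 18 of AMBP, 22 of 22 of TF and 8 of 8 of TTR, and the IgG IP and MDH2 IP bands overlap in 20, 16, 21 and 4 of them. Listed windows up to number 18 of TF and 4 to 6 of TTR hold 0 to 3 counts in any library. Neighbouring windows share sites, so these windows are not separate observations.

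Summed by exon, the first exons of 3 members were higher over SMI, and 9 exons further along were lower. This test of single exons was added after the data had been seen. Of 354 member exons tested over SMI, 3 were higher, where 2.66% of all 58683 exons were, and 9 were lower, where 5.52% were. The 3 higher were exon 1 of TF, TTR and F2. Among genes with at least 3 tested exons, the 5′-most exon was higher in 10.3% of members and 6.35% of other protein-coding genes. Exon 1 of TF had MDH2 IP counts of 613, 593 and 315, SMI counts of 240, 238 and 141, and IgG IP counts of 127, 46 and 33, and rose by 0.97 ± 0.26 (SE, adjusted p = 0.0252) on the log2 scale. Exon 1 of TTR had MDH2 IP counts of 283, 337 and 185, SMI counts of 113, 145 and 108, and IgG IP counts of 38, 28 and 11, and rose by 0.86 ± 0.24 (SE, adjusted p = 0.0339). Exon 1 of F2, which encodes the signal peptide of prothrombin, had MDH2 IP counts of 83, 109 and 40, SMI counts of 29, 27 and 14, and IgG IP counts of 15, 5 and 4, and rose by 1.41 ± 0.39 (SE, adjusted p = 0.0309). In CPM, all 3 MDH2 IP libraries lay above all 3 SMI libraries for each of these first exons. The exons were named for passing this same comparison, so this order adds no support, and it was not counted over all exons. Over IgG IP they did not pass, at 0.45 ± 0.30 (SE, adjusted p = 0.526), 0.89 ± 0.34 (SE, adjusted p = 0.208) and 0.80 ± 0.51 (SE, adjusted p = 0.516).

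The 9 lower exons lay in 6 members. In the last exon of RBP4 and of TTR, both numbered 8 in the count table, the log2 fold changes were -0.92 ± 0.18 (SE, adjusted p = 0.00412) and -1.0 ± 0.22 (SE, adjusted p = 0.00751). RBP4 exon 8 had MDH2 IP counts of 892, 543 and 534, SMI counts of 910, 1106 and 1025, and IgG IP counts of 174, 101 and 39. IgG IP was below SMI there as well, at -1.02 ± 0.28 (SE, adjusted p = 0.0259) for RBP4 and -1.25 ± 0.33 (SE, adjusted p = 0.0217) for TTR. ALB was lower in exon 5 at -0.75 ± 0.22 (SE, adjusted p = 0.0394), exon 12 at -0.89 ± 0.27 (SE, adjusted p = 0.0469) and exon 19 at -0.97 ± 0.24 (SE, adjusted p = 0.0157). AFP was lower in exon 8 at -0.79 ± 0.22 (SE, adjusted p = 0.0375) and FGA in exon 3 at -0.98 ± 0.28 (SE, adjusted p = 0.0402). PROS1 was lower in exon 17 at -1.67 ± 0.45 (SE, adjusted p = 0.0289) and exon 18 at -1.04 ± 0.26 (SE, adjusted p = 0.0196). Of these 12 exons, 1 kept its call without MDH2 IP replicate 1, 3 without SMI replicate 2, 4 without SMI replicate 1, 5 without MDH2 IP replicate 2, and 7 without the third replicate of either group, and all kept their sign in each. The exon that kept its call without each library in turn was exon 8 of RBP4.

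Over IgG IP, 1 of 303 member exons was higher, where 0.184% of 42944 exons were, and 0 were lower, where 1.25% were. It was exon 34 of A2M, with MDH2 IP counts of 222, 236 and 116, SMI counts of 125, 247 and 148, and IgG IP counts of 17, 4 and 0. IgG IP was low there against both other groups, at 2.35 ± 0.52 (SE, adjusted p = 0.016) for MDH2 IP over IgG IP and -2.40 ± 0.53 (SE, adjusted p = 0.00551) for IgG IP over SMI, while MDH2 IP over SMI was -0.13 ± 0.26 (SE, adjusted p = 0.822). The exon lost its call over IgG IP without any one of the MDH2 IP libraries or without IgG IP replicate 2. Its log2 fold change was 1.89 to 3.65 over the 6 fits that left out 1 library. For IgG IP over SMI, 1 of 300 member exons was higher and 12 lower, where 4.88% and 4.81% of 38817 exons were.

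When each exon was set against the rest of its own mRNA, 1 of 354 member exons differed over SMI, where 0.914% of all exons did. It was exon 1 of TTR, at 0.69 above the rest on the log2 scale (adjusted p = 0.0473), and it lost the call when any one of the 6 libraries was left out, at 0.61 to 0.74. Over IgG IP 1 of 303 differed, where 0.34% of exons did. It was exon 2 of AMBP, which encodes part of alpha-1-microglobulin, at -1.95 (adjusted p = 0.00596), with MDH2 IP counts of 14, 12 and 13, SMI counts of 6, 17 and 8, and IgG IP counts of 13, 11 and 9. This call rests on low counts, and it lost the call when any one of the MDH2 IP libraries was left out, at -2.09 to -1.84.

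The 6 most counted members showed how these exons sit in the whole mRNA. FN1 had 41 exons tested over SMI, from -0.80 in exon 20 to 0.48 in exon 1, of which 13 lay above 0. TF had 17, from -0.66 in exon 2 to 0.97 in exon 1, with 13 above 0. ALB had 15, from -0.97 in exon 19 to 0.37 in exon 2, with 1 above 0. The first tested exon of FN1, TF and ALB was thus the highest of its mRNA. AFP differed in shape, with exons 11 to 14 between 0.13 and 0.44 and exons 3 to 8 between -0.79 and -0.25. A2M had 36, from -1.19 in exon 6 to 0.43 in exon 10, with 3 above 0, and AHSG 7, from -0.40 to 0.23, with 3 above 0. Over IgG IP most exons of these mRNAs lay above 0: 37 of 41 in FN1, 15 of 15 in AFP, 15 of 17 in TF, 33 of 35 in A2M, 14 of 15 in ALB and 5 of 7 in AHSG. The share above 0 over all exons was not counted.

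**Figure D4:**
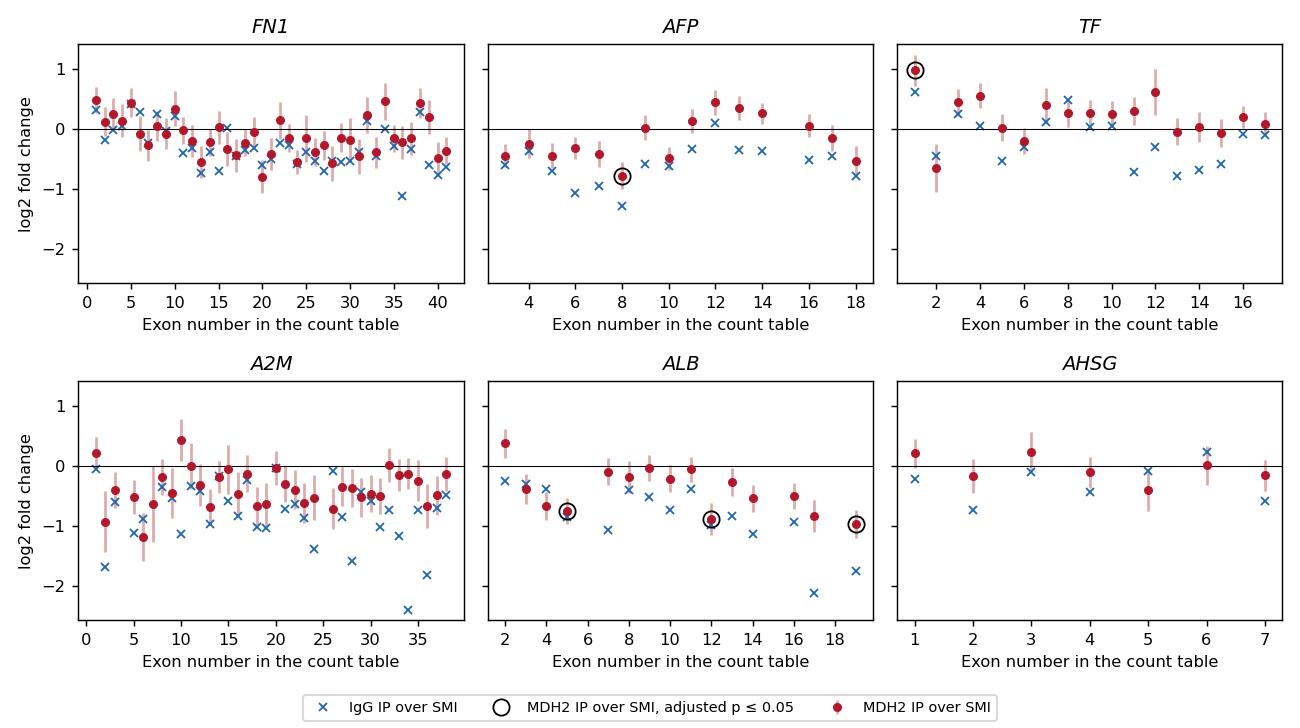
Log2 fold change over SMI (y axis) by exon number in the count table (x axis) for the 6 most counted members, with MDH2 IP as red points with standard errors and IgG IP as blue crosses. Circled exons passed an adjusted p of 0.05 for MDH2 IP over SMI: exon 1 of TF was higher, and exon 8 of AFP and exons 5, 12 and 19 of ALB were lower.

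The position of an exon along the mRNA was described for the members and for other protein-coding genes. Among members with at least 3 tested exons over SMI, the 5′-most exon lay above the fold change of its own gene in 19 of 29 (65.5%), beside 74.2% of 6538 other protein-coding genes, and the median difference was 0.21 beside 0.39. The 3′-most exon lay above its gene in 7 of 29 (24.1%), beside 11.8%, and the median difference was -0.34 beside -0.38. For IgG IP over SMI, whose SMI libraries are the same, the medians at the 5′-most exon were 0.42 in members and 0.34 in the others. For MDH2 IP over IgG IP they were 0.05 and 0.02. These are descriptions, with no test.

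Introns, which report unspliced RNA, were summed per gene in the same way. Over SMI 32 members had intron windows to test, of which 6 were higher, where 17.3% of 14050 genes were, and 1 was lower, where 15.3% were. VTN introns had MDH2 IP counts of 148, 92 and 61, SMI counts of 25, 39 and 52, and IgG IP counts of 45, 22 and 31, and rose by 1.87 ± 0.29 (SE, adjusted p = 0.00198) on the log2 scale. AMBP introns had MDH2 IP counts of 1306, 1005 and 753, SMI counts of 594, 865 and 773, and IgG IP counts of 422, 440 and 279, and rose by 0.99 ± 0.16 (SE, adjusted p = 0.0024). The other introns that rose were those of PROC at 1.06 ± 0.34 (SE, adjusted p = 0.038), F10 at 1.02 ± 0.25 (SE, adjusted p = 0.0138), AGT at 0.89 ± 0.18 (SE, adjusted p = 0.00579) and TF at 0.65 ± 0.13 (SE, adjusted p = 0.00563). PROS1 introns fell, at -0.77 ± 0.16 (SE, adjusted p = 0.0064). Of these 7, VTN, AMBP, AGT, TF and PROS1 passed without each library in turn. F10 did not pass without MDH2 IP replicate 1, at 0.97, or without SMI replicate 1, at 0.95, and PROC passed only without MDH2 IP replicate 3 or SMI replicate 2, with 0.68 to 1.31 over the 6 fits.

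Over IgG IP the introns that passed were, apart from those of TF, in other members. Of 29 members, 7 were higher, where 1.87% of 12847 genes were, and 0 were lower, where 4.02% were. AFP introns had MDH2 IP counts of 1377, 946 and 785, SMI counts of 1134, 1183 and 1408, and IgG IP counts of 199, 94 and 90, at 1.57 ± 0.18 (SE, adjusted p = 0.000907). ALB introns had MDH2 IP counts of 664, 437 and 354, SMI counts of 547, 680 and 800, and IgG IP counts of 111, 71 and 43, at 1.22 ± 0.21 (SE, adjusted p = 0.00803). These 2 passed without each library in turn. The introns of TTR at 2.23 ± 0.59 (SE, adjusted p = 0.0495), CP at 1.52 ± 0.39 (SE, adjusted p = 0.0446), FN1 at 0.78 ± 0.20 (SE, adjusted p = 0.0458), RBP4 at 0.72 ± 0.17 (SE, adjusted p = 0.0297) and TF at 0.66 ± 0.15 (SE, adjusted p = 0.0283) passed with all libraries. Those of CP, RBP4 and TF lost the call without any one of the 6 libraries and FN1 without any but MDH2 IP replicate 3, and TTR lost it without any one IgG IP library and was too little counted to test without an MDH2 IP library. The TTR introns, with IgG IP counts of 3, 2 and 2, met the count filter only through MDH2 IP. TF had MDH2 IP counts of 1470, 858 and 879, SMI counts of 859, 893 and 1189, and IgG IP counts of 354, 195 and 183, and was the member whose introns passed over both controls.

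Of the 6 members whose introns rose over SMI, 4 also passed for IgG IP over SMI, and of the 7 that rose over IgG IP, 4 were lower in IgG IP than in SMI. For IgG IP over SMI, 5 of 30 members were higher, where 18.6% of genes were, among them VTN at 1.89 ± 0.37 (SE, adjusted p = 0.00321), AMBP at 1.21 ± 0.22 (SE, adjusted p = 0.00202) and AGT at 0.95 ± 0.21 (SE, adjusted p = 0.00647). Another 5 were lower, where 12.1% were, among them AFP at -1.19 ± 0.17 (SE, adjusted p = 0.000525) and ALB at -1.06 ± 0.22 (SE, adjusted p = 0.00477). MDH2 IP over IgG IP for VTN and AMBP introns was 0.10 ± 0.30 (SE, adjusted p = 0.883) and -0.10 ± 0.21 (SE, adjusted p = 0.828). MDH2 IP over SMI for AFP and ALB introns was 0.26 ± 0.11 (SE, adjusted p = 0.104) and 0.04 ± 0.14 (SE, adjusted p = 0.851). These comparisons share their libraries, so each is given by its own values. The overlap of calls between comparisons was not counted over all genes, so it is not read as a trait of the members.

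**Figure D5:**
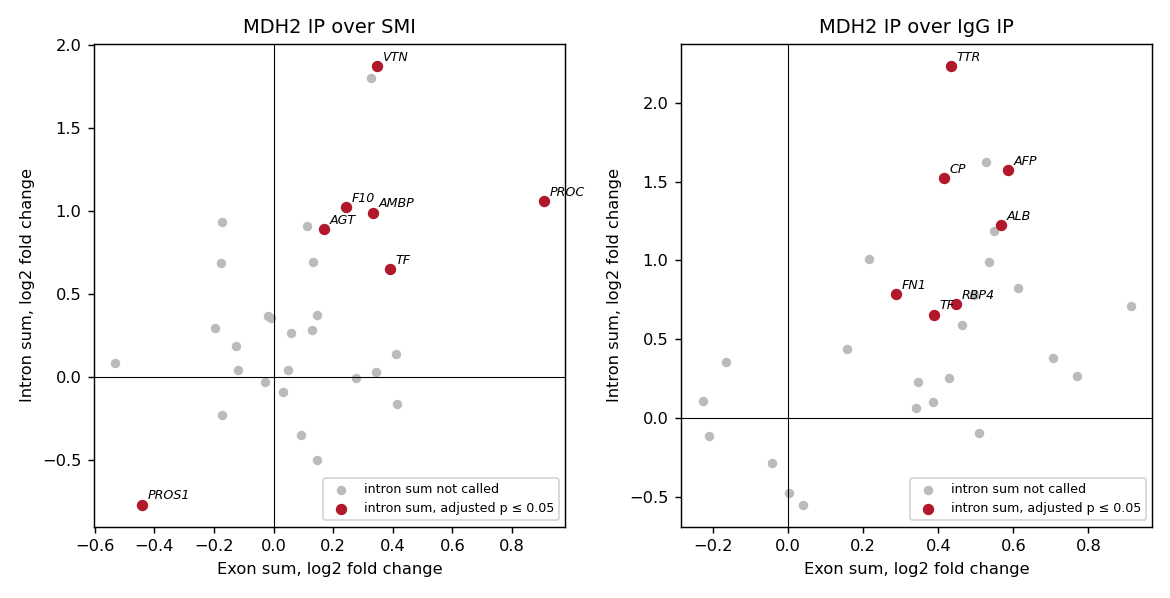
Log2 fold change of intron sums (y axis) against that of exon sums (x axis), 1 point per member, for MDH2 IP over SMI on the left and over IgG IP on the right, with red, named points where the intron sum passed an adjusted p of 0.05. On the left 6 named members lie above 0 and PROS1 below it, on the right all 7 lie above 0, and TF is named on both sides.

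Of 12 member intron windows tested over SMI 7 passed, where 13.4% of 4316 intron windows did, and over IgG IP 0 of 9 did in edgeR, where 0.978% of intron windows did. A window was tested only with 10 or more counts in at least 3 of the 6 libraries. All of the 7 but the RBP4 intron 2 window met this only through MDH2 IP. Their passing over SMI was therefore partly set by the filter. Of the 7, 1 was in AFP, with MDH2 IP counts of 15, 10 and 14, SMI counts of 1, 3 and 4, and IgG IP counts of 0, 0 and 0. The other 6 were in RBP4, in 3 introns, and those in introns 5 and 6 overlap one another. The 3 windows in RBP4 intron 6 adjoin its 5′ end. The middle one, at chr10:93600336-93600385 on the minus strand and shown because both controls held at most 3 counts, reads in its central 30 bases, with no base in capitals:
RBP4 intron 6: tgggactgtcttgggaatggggcgcctacc
It had MDH2 IP counts of 12, 13 and 15, SMI counts of 0, 3 and 3, and IgG IP counts of 0, 2 and 1. The MDH2 IP counts were alike in all 3 libraries, with a log2 fold change of 2.53 ± 0.62 (SE, adjusted p = 0.0267) against SMI and 1.12 ± 0.76 (SE, adjusted p = 1) against IgG IP. Since the window was chosen for its low control counts, these values describe it and are not support. Another window of this intron also held at most 3 counts in any control library.

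Other genes of the secretory liver programme give the setting. Of 73 listed plasma protein genes outside the group, 40 were tested over SMI, and 1 was higher and 2 lower, with a median log2 fold change of 0.15. Named after their values were seen, these were HGFAC, the activator of hepatocyte growth factor, at 1.72, TFPI, the tissue factor pathway inhibitor, at -0.73, and SELENOP, the selenium carrier. SELENOP, which had the highest mean CPM of the list in SMI but not in MDH2 IP or IgG IP, had 244, 255 and 247 CPM in MDH2 IP, against 553, 661 and 554 in SMI, and 242, 192 and 209 in IgG IP. Both immunoprecipitations were below SMI, at -1.28 ± 0.14 (SE, adjusted p = 0.000364) for MDH2 IP and -1.42 ± 0.19 (SE, adjusted p = 0.000529) for IgG IP. Of 42 tested genes for entry into and passage through the endoplasmic reticulum, 11 were lower and 1 was higher over SMI, with a median of -0.33, and 0 passed over IgG IP in edgeR, with 0 also at an unadjusted p of 0.05. STT3B, an oligosaccharyl transferase subunit, had the highest mean CPM in SMI of those that passed, at -0.84 ± 0.16 (SE, adjusted p = 0.00705) against SMI and 0.18 ± 0.22 (SE, adjusted p = 0.746) against IgG IP. Of 36 tested liver enzymes and transcription factors that stay in the cell, 3 were higher and 1 lower over SMI, with a median of 0.09.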

How the data were processed

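Cross-linked RNA from Huh7 cells was sequenced in 3 MDH2 IP, 3 SMI and 3 IgG IP libraries. Per the methods and the submitters' notes, the authors trimmed reads with cutadapt, mapped them with STAR to GRCh38 (hg38), kept reads with up to 10 locations, removed PCR duplicates by molecular identifiers, and counted cross-link sites, taken from the base before each read, per window with htseq-clip on GENCODE v23 plus tRNA genes. The deposited values are raw counts in 15767969 windows of 50 nt, in steps of 20 nt. Reads with several locations can be split between near-identical genes, and overlapping windows count a site up to 3 times, so counts are not independent sites. The libraries' exon totals run from 506394 to 5077928, which limits what IgG IP can show, and the intervals cover counting and replicate error only.

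From these, windows were summed by gene and exon. Of Ensembl identifiers 96.6% matched GENCODE v44 for symbols, and 1 tRNA entry with the same counts as another identifier was left out. Replicates of a group differed beyond sampling noise (chi-square of 5.83 to 18.1 per degree of freedom over genes). A feature was kept when 3 or more of the 6 libraries in a comparison held 10 counts, and edgeR 4.0.16 under R 4.3.3 gave the test (TMM scaling, quasi-likelihood test, Benjamini-Hochberg over all features), two-sided for genes and exons and one-sided for windows. The study used DEWSeq for windows, and edgeR stood in for it. Exons were set against the rest of their gene with diffSpliceDGE. CPM values use TMM over 9 libraries. SE is the log2 fold change divided by the square root of the F statistic. On simulated data with 200 genes raised 4-fold, the gene test over SMI recovered 86% of them among 13560 genes with 18 other calls. The single-exon test recovered 81.5% among 53478 exons, and the exon-against-rest test 55% among 49403. Recovery at less than 4-fold was not tested. The exon sums of the members over SMI had log2 fold changes of only -0.53 to 0.91, so these recovery rates do not cover them. DESeq2 1.42.0, other scalings, filters and window sets, a replicate block, and leaving out each library were the alternatives.

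Window positions were recovered from their numbers, which run along the genome with 1 number left out after each exon or intron. This numbering fitted GENCODE v44 for 80 of 81 listed features of FN1, 18 of 19 of AMBP, 40 of 41 of ITIH2 and 12 of 14 of RBP4. For TF and TTR, features of the same number fitted for 4 of 33 and 1 of 9. With the table's first exon set against exon 2 of TF and exon 4 of TTR in v44, which hold the start codons, 32 of 33 and 5 of 6 matched features fitted, and these placements rest on that shift. Of 11 listed TTR features only 6 could be matched at it. Each shift was the best fitting of shifts by 0 to 4 features, with the offset left free, so the TTR placement is the less certain. In FN1 and AMBP the feature left unfitted was exon 1, the exon that holds the placed windows. The first exons of FN1 and AMBP run further 5′ in the count table, and their windows were placed from the 3′ end. The outermost FN1 windows that passed run 11 and 31 nt past the 5′ end of the v44 exon. The members and gene lists were chosen with earlier results of these data known. All members were accounted for, the 12 with the highest mean CPM were described by library and the first 6 by exon, with every member called and up to 3 of the most counted genes of each other list.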

Additional observations from a re-analysis of the deposited data

How the results depend on the processing

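Of the results for single genes, exons and windows, 642 of 807 values under the alternatives kept their direction and their side of the threshold. The exon-sum direction over SMI, never past the threshold, turned for RBP4 (0.0016 with DESeq2 size factors, 0.0017 in DESeq2's Wald test, 0.15 with library totals, 0.027 with all 9 libraries in one fit, 0.26 with introns added), A2M (0.036 with library totals, 0.15 with introns added), ALB (0.043 and 0.16 likewise) and FGB (0.17 with introns added). Leaving out 1 library gave -0.059 to 0.018 for RBP4, -0.48 to 0.16 for A2M, -0.27 to 0.048 for ALB, -0.16 to 0.24 for FN1, -0.12 to 0.37 for AHSG, -0.12 to 0.40 for FGA and -0.028 to 0.15 for AFP. Scaling by library totals moved the median of all genes over SMI from 0.005 to 0.17.

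For whole member mRNAs over SMI, 4 were higher with library totals, 1 by DESeq2's Wald test and 7 with introns added, where 1 was lower, and 0 to 1 were higher without 1 library. Over IgG IP 9 were higher with introns added and 0 to 1 without 1 library. For IgG IP over SMI, 1 was higher with DESeq2 size factors, library totals, all 9 libraries or introns added, 2 by DESeq2's Wald test or with at least 30 counts, and 0 to 1 without 1 library, and 1 was lower with introns added and 0 to 2 without 1 library. Of the other plasma protein genes, 2 were higher and 1 lower with library totals, 6 higher with introns added, and 0 higher with at least 1 count, at least 30 counts, all 9 libraries (1 lower) or windows that do not overlap, with 0 to 1 higher and 1 to 2 lower without 1 library. Member introns over IgG IP gave 2 to 4 higher without 1 library. Member windows over SMI were 202 with library totals (23.8% of all windows passed), 24 with at least 20 counts (10.2%) and 0 to 18 without 1 library, and over IgG IP 2 with library totals or at least 5 counts, 1 with at least 20 counts and 0 to 1 without 1 library. Exons against the rest of their mRNA were 2 over SMI with at least 30 counts, 3 with windows that do not overlap and 0 without 1 library, and over IgG IP 0, 0 and 0 to 1. Single exons over SMI were 6 higher with windows that do not overlap, and 0 to 4 higher and 1 to 10 lower without 1 library, and over IgG IP 3 higher, 0 to 12 higher and 0 to 1 lower. The member share with introns added was 0.96% for MDH2 IP, 0.71% for SMI and 0.502% for IgG IP, without FN1 1.14% for MDH2 IP and 0.959% for SMI, and over protein-coding genes 1.62% in SMI. Apart from the window shares above, the shares over all features in these fits are not given, so these counts are not read as a result about the members. The cause of these changes was not tested.

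Same-numbered samples correlated, in their deviations from the group means over 13977 genes, by 0.075, 0.48 and 0.5 for MDH2 IP and SMI. The values were -0.0084, 0.22 and 0.26 for MDH2 IP and IgG IP, and 0.035, 0.23 and 0.25 for IgG IP and SMI. The main fits did not take the numbers as pairs, although each of the 6 MDH2 IP and SMI samples correlated best with its own number. Spread that same-numbered libraries share thus stayed in the standard errors. For A2M over SMI the SE was 0.31 without the block and 0.087 with it. With the replicate block, 8 member mRNAs were higher (TF, AMBP, VTN, F2, F5, C5, HPX and PROC) and 1 lower (PROS1) over SMI, where 21.1% and 20.7% of all genes were, 5 higher over IgG IP (AFP, ALB, F5, ITIH2 and C5), where 2.78% were, and 1 higher and 5 lower for IgG IP over SMI, where 12.1% and 9.78% were. The SMI was set aside from lysate before immunoprecipitation, but no source used here says that a number marks a shared lysate. The block gave 5 other plasma protein mRNAs higher (21.1% of all genes were) and 22 member windows over SMI (7.47% of all windows passed, beside 4.07% without it). It also gave 15 member introns higher over SMI, and 13 higher and 2 lower over IgG IP. Member exons were 18 against the rest over SMI, and singly 18 higher and 38 lower over SMI with 9 higher over IgG IP. The shares over all introns and exons are not given for the block, so these counts are not read as a result about the members. Low IgG IP counts limit every comparison that uses it, and windows with few counts could not be tested.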
